A study of Mus musculus with 18 samples.

Results

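RNA sequencing of the heart apex of wild-type mice was used to describe what remained different from control after lamin C had been supplied to hearts labelled Lmna shRNA. The 6 libraries compared were chosen by their labels out of 18 in the series. There were 3 hearts labelled with the Lmna shRNA and lamin C, called lamin C hearts here, and 3 control hearts of the same batch, named batch LC. Every heart was wild type by genotype, and the added lamin was delivered with a recombinant adeno-associated virus of serotype 9 in a mouse model of Lmna dilated cardiomyopathy made by knockdown. What the control hearts received, the promoter behind the shRNA or the lamin, the age and sex of the mice and the time of collection are not given in the sources used here. Further groups of 3 libraries were used as yardsticks. They were hearts labelled Lmna shRNA in batch LC, hearts with the shRNA and lamin A in batch LA, and the shRNA and control hearts of batch LA. Each added lamin was present in 1 batch only, so lamin and batch cannot be told apart except through the controls of each batch.

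Lmna encodes the A-type lamins, lamin A and lamin C, which are splice products of a single gene and form part of the fibrous layer beneath the inner nuclear membrane. Loss of A-type lamins in heart muscle leads to dilated cardiomyopathy with conduction disease and fibrosis. In such hearts fibroblasts lay down matrix, cardiomyocytes return to genes of the fetal heart, and the genes of fatty acid oxidation that power the adult heart are turned down.

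The 6 libraries held between 31418657 and 39943960 counts, and 17876 of 54532 genes had enough counts to be tested. All 8 cardiomyocyte markers were present at 1 CPM or more in the controls (CPM being counts relative to the scaled library total). Mitochondrially encoded genes took 24.0% ± 0.797 of the counts in lamin C hearts, 14.4% ± 1.35 in shRNA hearts and 25.4% ± 0.149 in control hearts (SD, n = 3 each). Lamin C heart 2 lay nearer to control than the others in many of the genes described here. Control heart 3 stood apart from the other controls. At a mean of 5 CPM or more it lay at least 2-fold above or below both others in 68 of 10820 genes, against 13 genes for control 1 and 5 for control 2. In 55 of the 68 genes the controls of batch LA were nearer to control 3, and 13 of the 68 were called between lamin C and control hearts. The deposited sample names number control 3 next to a control of batch LA, whereas its title sets it in batch LC. What the numbers stand for is not stated. Some results are therefore also given without control 3. The sources used here do not say whether replicates came from separate litters, so the p-values measure the spread between these samples, which may be technical in part.

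Lmna itself had the smallest adjusted p among the genes tested between lamin C and control hearts. Lmna (ENSMUSG00000028063, chromosome 3, 88480147 to 88509956, minus strand, mm10) had 1317, 1064 and 1375 CPM in lamin C hearts, 137, 134 and 115 CPM in shRNA hearts, and 122, 128 and 120 CPM in control hearts. The lamin C hearts stood far above both other groups without overlap, while the shRNA and control hearts overlapped. The log2 difference between lamin C and control hearts was 3.34 ± 0.09 (SE, edgeR adjusted p = 7.02e-15), a 10.1-fold excess. The hearts labelled Lmna shRNA therefore showed no fall in Lmna, and their difference from control was 0.06 ± 0.08 (edgeR adjusted p = 0.58), and directions given for the shRNA rest on the labels. Gene counts separate neither lamin A from lamin C nor the added sequence from the mouse gene.

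Between lamin C and control hearts, 2690 genes were called at an edgeR adjusted p under 0.05, which is 15% of the genes tested. Of these, 1585 (8.87%) were higher and 1105 (6.18%) were lower in lamin C hearts. The rises were larger than the falls. The median log2 difference was 0.74 among the genes called higher and -0.28 among those called lower, and 554 genes (3.1%) were higher but 31 (0.173%) lower by 2-fold or more. For 9448 genes, 52.9% of those tested, the 95% interval of the log2 difference lay wholly within -0.5 to 0.5, and 949 of these were among the genes called. The shRNA hearts of the same batch differed from the same controls in 11247 genes (62.9%), 5948 (33.3%) higher and 5299 (29.6%) lower. The balance of rises and falls depended on scaling. With library totals in place of TMM factors the median over all genes was 0.11 rather than 0.00, and 2879 genes were called higher and 293 lower. The direction of small falls is accordingly relative to that shift. Leaving out 1 lamin C or control heart gave 1066 to 1620 genes called higher and 441 to 1060 lower. The fewest were called without lamin C heart 1, namely 1066 higher and 441 lower.

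The largest rises among called protein-coding genes of 5 CPM or more with no overlap between lamin C and control hearts were led by Thbs4 and Gdf15. Thbs4, a thrombospondin of the extracellular matrix, had 114, 34.9 and 77.3 CPM in lamin C hearts, 787, 829 and 544 CPM in shRNA hearts and 3.63, 3.68 and 4.94 CPM in control hearts. Lamin C hearts thus lay between the other groups with no overlap, 4.21 ± 0.35 above control on the log2 scale (edgeR adjusted p = 3.87e-07). Gdf15, a circulating stress cytokine, had 12.4, 6.03 and 10.04 CPM in lamin C hearts, 17.2, 15.6 and 12.9 CPM in shRNA hearts and 0.621, 0.667 and 0.430 CPM in control hearts, a log2 difference from control of 4.03 ± 0.28 (edgeR adjusted p = 4.86e-08). Each lamin C heart was again above each control heart. Serpina3n, a secreted protease inhibitor, differed by 3.4 ± 0.32, Lgals3, the galectin-3 of macrophages and injured tissue, by 3.36 ± 0.19, and Comp, a matrix protein related to the thrombospondins, by 3.31 ± 0.54. The remaining members of the 12 largest rises were Fmod, Timp1, Cilp, Nppa, Nmrk2, Lmna and the uncharacterised Gm4841, whose lamin C values were widely spread at 6.29, 14.5 and 2.20 CPM against 0.457, 0.316 and 1.40 CPM in control hearts.

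The largest falls, chosen in the same way, were smaller and were led by Lrat and Clcn1. Lrat, which esterifies retinol, had 1.998, 1.83 and 1.73 CPM in lamin C hearts, 0.353, 0.453 and 0.0764 CPM in shRNA hearts and 6.44, 6.74 and 2.54 CPM in control hearts (-1.50 ± 0.34, edgeR adjusted p = 0.00571). Clcn1, the muscle chloride channel, had 5.50, 6.44 and 6.17 CPM in lamin C hearts, 0.104, 0.373 and 0.153 CPM in shRNA hearts and 18.04, 12.6 and 12.3 CPM in control hearts (-1.25 ± 0.24, edgeR adjusted p = 0.00158). In both genes the lamin C hearts lay between the other groups. Bdh1, an enzyme of ketone body use, did otherwise, with 29.2, 29.3 and 31.7 CPM in lamin C hearts, 33.4, 43.6 and 36.8 CPM in shRNA hearts and 43.7, 74.3 and 77.4 CPM in control hearts. Its lamin C values were the lowest of the 3 groups (-1.11 ± 0.18 against control, edgeR adjusted p = 0.000449), but the difference from shRNA hearts was not called. Kcnv2, a modifier subunit of potassium channels, fell by 0.88 ± 0.19, Ano4, a member of the anoctamin family, by 0.80 ± 0.13, and Ppara, the nuclear receptor that drives fatty acid oxidation genes, by 0.72 ± 0.18. The other falls, Acot1, Pfkfb1, Ddc, Acsl6, Mylk4 and Ssu2, ranged from -0.75 to -0.90 on the log2 scale. Several were not stable to the loss of 1 heart. Without control 3 Acot1 was at -0.41 (edgeR adjusted p = 0.171) and Ddc at -0.63 (adjusted p = 0.133), and without control 1 Pfkfb1 was at -0.57 (adjusted p = 0.103). Acsl6 was not called without any single lamin C or control heart (adjusted p from 0.0516 to 0.134). Acot1 was also not called without lamin C heart 1 (-0.83) or 3 (-0.89), Pfkfb1 without lamin C heart 1 (-0.76), and Ddc without control 1 (-0.91) or any 1 lamin C heart (-0.90 to -0.77).

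**Figure D1:**
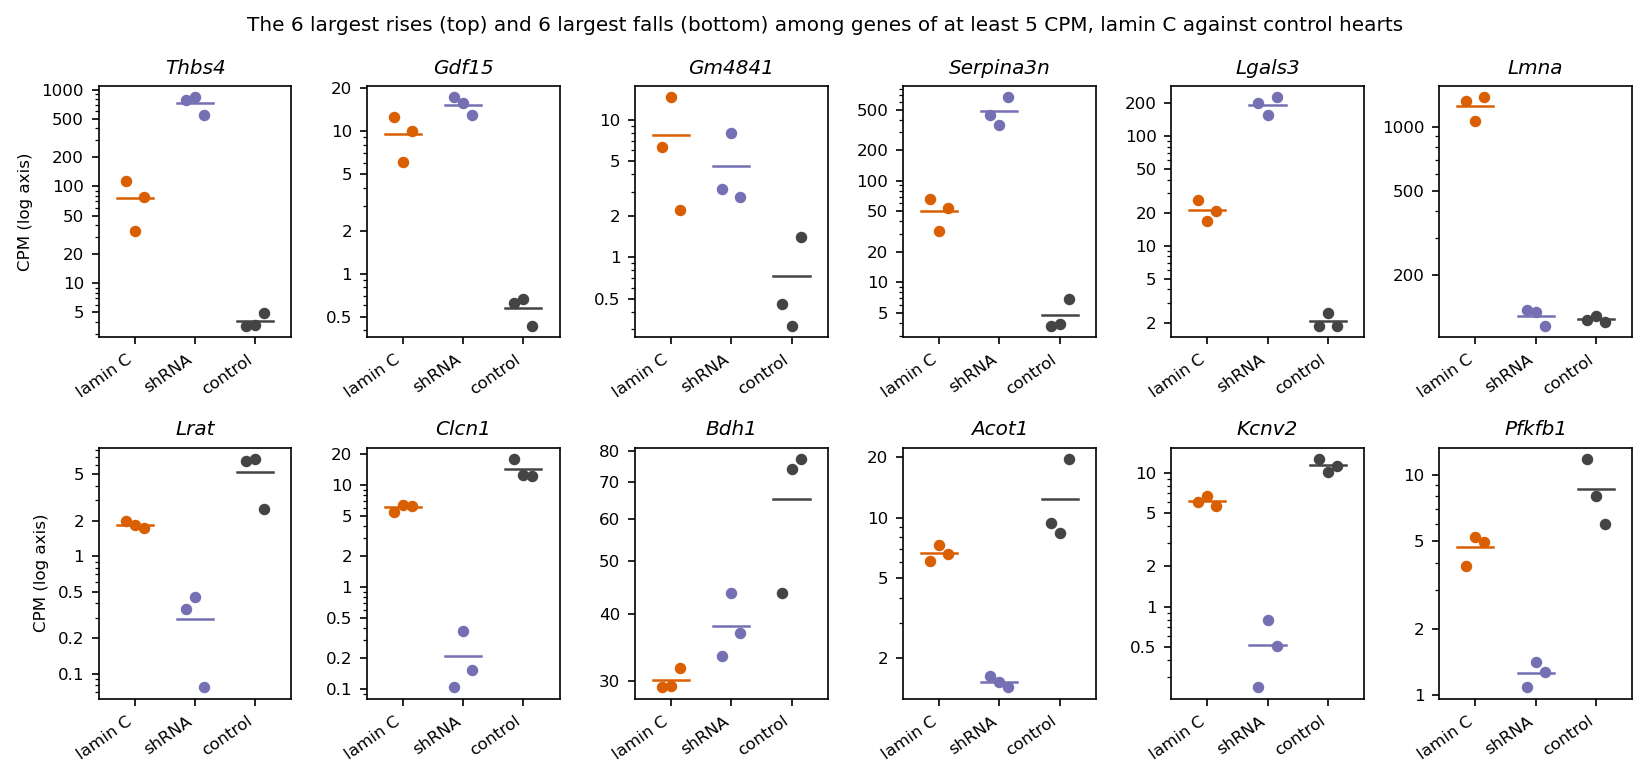
CPM (log axis) of the 6 largest rises and 6 largest falls in lamin C against control hearts among called protein-coding genes that averaged 5 CPM or more where they were higher and whose groups did not overlap, each point 1 heart and each line the mean of 3, with shRNA hearts of the same batch between them. The choice of genes sets the gap between lamin C and control points. In Bdh1 the lamin C hearts are the lowest group, although their difference from shRNA hearts was not called.

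To see how far the lamin C hearts had moved from the shRNA state, genes were taken from batch LA, which shares no library with batch LC. There, 2816 genes (15.8%) were higher and 1376 (7.7%) lower by 2-fold or more in shRNA than in control hearts. Of the 2816 genes, 1118 (39.7%, against 8.87% of all genes) were called higher in lamin C than in control hearts and 1 was called lower. Their median log2 difference from control was 0.65 in lamin C hearts and 1.81 in shRNA hearts of batch LC. Of the 1376 genes, 392 (28.5%, against 6.18% of all genes) were called lower in lamin C hearts and 2 higher, with a median of -0.26 in lamin C hearts and -1.36 in shRNA hearts. The interval of the difference lay within -0.5 to 0.5 for 6.71% of the first set and 35.3% of the second.

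The groups were in the same order in both sets. The mean log2 distance from the control mean over the genes higher in batch LA was 0.80, 0.54 and 0.73 in the 3 lamin C hearts, 1.93, 1.86 and 1.90 in shRNA hearts and -0.06, -0.03 and 0.09 in control hearts. Over the genes lower in batch LA it was -0.33, -0.17 and -0.29 in lamin C hearts, -1.47, -1.34 and -1.57 in shRNA hearts and 0.03, -0.005 and -0.02 in control hearts. The groups did not overlap, and lamin C heart 2 was the nearest to control in both sets.

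**Figure D2:**
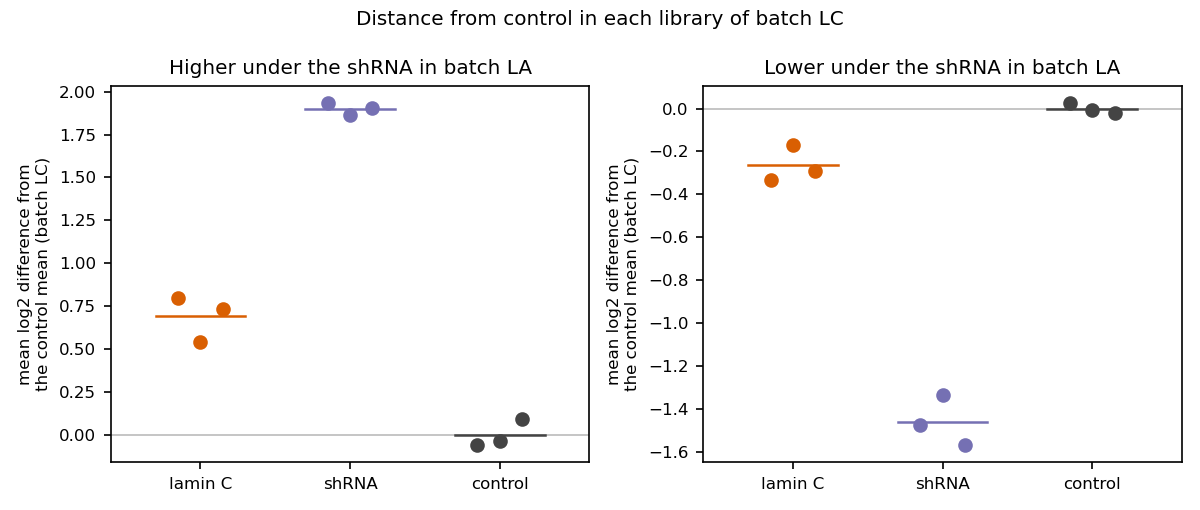
Mean log2 difference from the control mean of batch LC over genes that were at least 2-fold higher (left, 2816 genes) or lower (right, 1376 genes) in shRNA than in control hearts of batch LA. Each point is 1 heart, the line is the mean of 3, and lamin C hearts lie between shRNA and control hearts in both panels.

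Genes of the extracellular matrix had the largest share of members raised among the pathway lists. Of 38 tested members of the matrix and fibrosis list, 35 were higher and none lower in lamin C hearts, with a median log2 difference of 1.16 against 0.00 over all genes, and only Col18a1, Thbs2 and Eln were not called. All 38 were higher in shRNA hearts, with a median of 3.19, and all 38 were lower in lamin C than in shRNA hearts, against 28.4% of all genes. Postn, the periostin of activated fibroblasts, had 498, 249 and 408 CPM in lamin C hearts, 2939, 2894 and 1920 CPM in shRNA hearts and 44.7, 58.5 and 69.0 CPM in control hearts (2.75 ± 0.22, edgeR adjusted p = 2.01e-07). The lowest lamin C heart was above the highest control heart. Col1a1, a chain of collagen I, had 418, 237 and 364 CPM in lamin C hearts and 113, 125 and 170 CPM in control hearts (1.32 ± 0.19, edgeR adjusted p = 0.000113). Col3a1 (1.45 ± 0.19), Col12a1 (2.28 ± 0.38), Ltbp2, which binds elastic fibres (2.86 ± 0.30), and Lox, which crosslinks collagen (1.78 ± 0.24), were also higher. Cthrc1, secreted by matrix-producing fibroblasts, had 351 counts over the lamin C hearts and 6 over the control hearts (5.62 ± 0.94, edgeR adjusted p = 0.000483). Lamin C heart 2 was the lowest of its group in Postn and in Col1a1.

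Of 19 matrix proteases and inhibitors, 10 were higher and none lower (median 0.52). Without control 3 the median was 0.81, and without control 1 a member was called lower. Timp1, an inhibitor of matrix proteases, had 16.6, 9.64 and 14.4 CPM in lamin C hearts, 118, 84.3 and 73.9 CPM in shRNA hearts and 1.44, 1.47 and 1.86 CPM in control hearts (3.08 ± 0.26, edgeR adjusted p = 4.95e-07). No lamin C heart reached the shRNA or the control range. Adam8, a membrane protease of leukocytes, differed by 2.07 ± 0.20, and Adamts2, which trims procollagen, by 0.87 ± 0.14. Some fibroblast markers were also higher, among them Col1a1, which was already described with the matrix genes. Of 12 fibroblast markers 7 were higher and none lower (median 0.36), and their summed level was 2859 to 3640 CPM in lamin C hearts, 5774 to 5931 CPM in shRNA hearts and 2400 to 2851 CPM in control hearts. The 7 were Col1a1, Mfap5, Lum, Pi16, Dpt, Dcn and Ly6a, whereas Pdgfra (0.04 ± 0.12) and Tcf21 (0.32 ± 0.16) were not called. Of 10 markers of activated fibroblasts, several of which are also on the matrix list, 9 were higher and Fap was not called. In bulk tissue, more cells of a type and more RNA per cell cannot be told apart.

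Fetal and stress genes of cardiomyocytes stayed raised in part. Of 18 tested, 10 were higher and none lower in lamin C hearts (median 1.01), and 16 were higher and 1 lower in shRNA hearts (median 2.52). Nppa, the precursor of atrial natriuretic peptide, had 2522, 744 and 1406 CPM in lamin C hearts, 13110, 10533 and 15197 CPM in shRNA hearts and 136, 165 and 257 CPM in control hearts (3.07 ± 0.36, edgeR adjusted p = 1.88e-05). The lamin C hearts were widely spread but all exceeded control. Myh7, the slow myosin heavy chain of the fetal mouse ventricle, had 808, 517 and 556 CPM in lamin C hearts and 252, 183 and 236 CPM in control hearts (1.49 ± 0.33, edgeR adjusted p = 0.00433). Nmrk2, a nicotinamide riboside kinase, differed by 2.91 ± 0.32, Ankrd1, a stretch-responsive protein of the sarcomere, by 1.23 ± 0.19, and Ctgf, a matricellular growth factor, by 1.46 ± 0.20. Sprr1a, a small proline-rich stress protein, had 475 counts over the lamin C hearts and 4 over the control hearts (6.61 ± 0.72, edgeR adjusted p = 7.52e-06). Acta1, skeletal actin, was at 701, 505 and 581 CPM in lamin C hearts, 453, 695 and 326 CPM in shRNA hearts and 115, 197 and 341 CPM in control hearts (1.45 ± 0.29, edgeR adjusted p = 0.00225). In that gene lamin C and shRNA hearts overlapped. Nppb, the precursor of brain natriuretic peptide, was not called, with 302, 176 and 255 CPM in lamin C hearts and 79.9, 108 and 235 CPM in control hearts (0.79 ± 0.27, edgeR adjusted p = 0.0553).

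Some genes of contraction and excitation were lower than control. Of 20 sarcomere genes, 7 were lower and none higher (median -0.21), against 19 lower in shRNA hearts (median -0.83). Cmya5, a costameric protein, had 440, 457 and 430 CPM in lamin C hearts and 643, 629 and 620 CPM in control hearts (-0.51 ± 0.06, edgeR adjusted p = 1.07e-05). Replicates of this gene were tight, and the groups did not overlap. Titin, from Ttn, was at -0.23 ± 0.06 and was not called without lamin C heart 1 (edgeR adjusted p = 0.0577). Of 16 genes of calcium handling 5 were lower and none higher (median -0.15). Atp2a2, the calcium pump of the sarcoplasmic reticulum, was at -0.44 ± 0.10, Ryr2, its calcium release channel, at -0.42 ± 0.07, and Pln, the inhibitor of the pump, at -0.32 ± 0.07. With library totals as the scale, 2 sarcomere and 4 calcium genes were called lower, and the list medians were -0.09 and -0.04. The sarcomere count was also 2 without lamin C heart 1, and 3 without control 1 or lamin C heart 3.

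Among 25 ion channel and gap junction genes, 10 were lower and 1 higher (median -0.27). By library totals 6 were lower and 2 higher (median -0.15). Cacna2d1, a subunit of the L-type calcium channel, had 165, 178 and 164 CPM in lamin C hearts and 235, 208 and 253 CPM in control hearts (-0.46 ± 0.07, edgeR adjusted p = 0.000218). Kcnip2, which shapes the transient outward potassium current, was at -0.62 ± 0.14 and Cacna1c, the pore of the L-type channel, at -0.36 ± 0.07. Groups did not overlap in any of these. Gja1, the gap junction protein connexin 43 (-0.22 ± 0.12, edgeR adjusted p = 0.242), was not called. Summed over the 8 cardiomyocyte markers, levels were 55624 to 57483 CPM in lamin C hearts, 25646 to 30321 CPM in shRNA hearts and 68273 to 71744 CPM in control hearts. Of these markers 5 were called lower in lamin C hearts (median -0.26), and by library totals 2 were (median -0.15). The count was also 2 without lamin C heart 1, and 3 without control 1, control 2 or lamin C heart 3. The part of that shift in the falls described here was not tested.

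Energy metabolism genes showed many small falls. Of 30 genes of fatty acid oxidation 19 were lower and none higher in lamin C hearts (median -0.29), against 28 lower in shRNA hearts (median -1.63). Etfa, which passes electrons from fatty acid oxidation to the respiratory chain, had 432, 491 and 434 CPM in lamin C hearts, 189, 199.8 and 157 CPM in shRNA hearts and 616, 590 and 608 CPM in control hearts (-0.42 ± 0.08, edgeR adjusted p = 0.0009). Mlycd, malonyl-CoA decarboxylase, was at -0.41 ± 0.08 and Slc25a20, the carnitine carrier of the mitochondrial membrane, at -0.36 ± 0.08. Cpt1b, the muscle form of the enzyme that commits fatty acids to oxidation, was at -0.58 ± 0.15. Its isoform Cpt1a was at -0.09 ± 0.08 and was not called. The differences of the 30 genes ranged from -0.72, in Ppara, to -0.09, in Cpt1a. Without lamin C heart 1 the number called lower was 6.

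Of 43 nuclear-encoded respiratory chain genes 20 were lower and none higher (median -0.22), against 43 lower in shRNA hearts (median -1.11). Ndufs1, a complex I subunit, had 690, 784 and 704 CPM in lamin C hearts and 955, 901 and 897 CPM in control hearts (-0.34 ± 0.07, edgeR adjusted p = 0.00221). Sdha, of complex II, was at -0.33 ± 0.06 and Uqcrc1, of complex III, at -0.34 ± 0.07. The members not called ranged from -0.32 to -0.06. The count depended on single hearts. It was 5 without lamin C heart 1, 7 without control 1 or lamin C heart 3, 13 without control 3 and 36 without lamin C heart 2. By library totals 5 were called lower, with a list median of -0.10. The fatty acid list then had 10 called lower and a median of -0.18. Of 13 mitochondrially encoded genes mt-Nd3 was called, although its groups overlapped, with 85.7, 75.4 and 136 CPM in lamin C hearts and 74.9, 237 and 1004 CPM in control hearts. Without control 3 it was at -0.65 (edgeR adjusted p = 0.275), and it was not called without lamin C heart 1 (-2.05) or 2 (-1.98) either. The share of that list called lower is near the 6.18% over all genes. Of 22 glycolysis and glucose uptake genes 8 were lower and none higher (median -0.11), among them Ldhb, the lactate dehydrogenase of the heart (-0.39 ± 0.06), Pfkfb2 (-0.43 ± 0.10) and Pfkm (-0.28 ± 0.07), which regulate and catalyse the phosphofructokinase step. By library totals 3 were called lower and 3 higher in that list. The number lower was 3 without control 1 or lamin C heart 1 and 5 without control 2 or lamin C heart 3, and without control 3 a member was called higher.

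**Figure D3:**
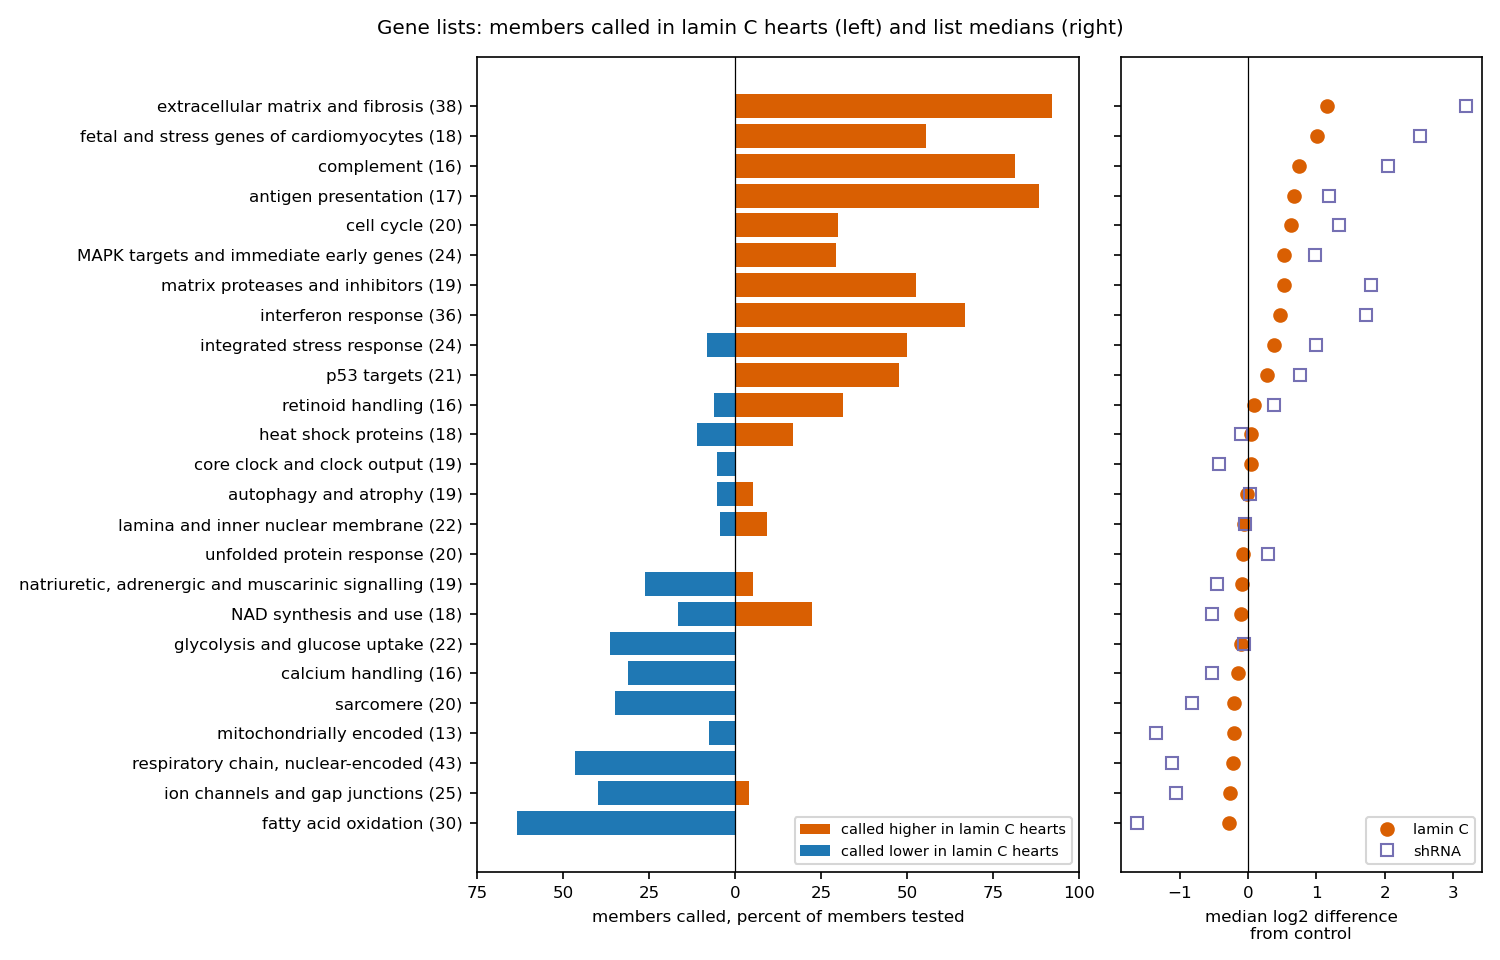
Left, share of each list's tested members (number in brackets) called higher or lower in lamin C than in control hearts. Right, list medians of the log2 difference from control in lamin C hearts (filled circles) and shRNA hearts (open squares), where matrix genes have medians of 1.16 and 3.19 and fatty acid oxidation genes -0.29 and -1.63.

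Immune genes formed the other broad set above control. Of 36 interferon-response genes 24 were higher and none lower in lamin C hearts (median 0.47), against 33 higher in shRNA hearts (median 1.73), and 32 were lower in lamin C than in shRNA hearts. Ifit1, which binds foreign RNA caps, had 23.1, 21.6 and 17.0 CPM in lamin C hearts, 61.1, 63.4 and 66.8 CPM in shRNA hearts and 8.76, 7.93 and 9.34 CPM in control hearts (1.24 ± 0.15, edgeR adjusted p = 2.69e-05). Zbp1, a sensor of nucleic acids, had 5.10, 4.61 and 4.02 CPM in lamin C hearts, 23.0, 24.5 and 22.8 CPM in shRNA hearts and 1.18, 1.26 and 2.29 CPM in control hearts (1.54 ± 0.21, edgeR adjusted p = 6.17e-05). Lamin C hearts were above control without overlap in both genes. Irf7, a transcription factor of the pathway, differed by 0.79 ± 0.12, Mx1, an antiviral GTPase, by 1.81 ± 0.29, and Cxcl10, a chemokine that draws T cells, by 2.51 ± 0.45, with 2.76, 5.46 and 1.19 CPM in lamin C hearts against 0.457, 0.632 and 0.573 CPM in control hearts. Without control 3, 31 members were called higher.

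The interferon-stimulated response element is the promoter sequence through which type I interferon acts, and the promoters of 2 raised genes are shown for it. Promoter windows of 300 bases from RefSeq (GRCm38.p6, from 250 bases before to 50 bases after the gene's start) were available for 25 of the 36 genes. Its core was searched as GAAA, 2 further bases and GAAA, on both strands (TTTC, 2 bases and TTTC on the other). It was in the windows of 16 of the 25 genes and in 3.99% of 27025 genes with a window. Among these, 12 of 17 genes called higher and 4 of 8 that were not held it. Capitals mark the core. In Cxcl10 (chr5:92348840-92349139, minus strand) it begins at position -213 from the start, and Ifit1 (chr19:34640639-34640938, plus strand) holds it on the other strand at -104 and -85.
Cxcl10: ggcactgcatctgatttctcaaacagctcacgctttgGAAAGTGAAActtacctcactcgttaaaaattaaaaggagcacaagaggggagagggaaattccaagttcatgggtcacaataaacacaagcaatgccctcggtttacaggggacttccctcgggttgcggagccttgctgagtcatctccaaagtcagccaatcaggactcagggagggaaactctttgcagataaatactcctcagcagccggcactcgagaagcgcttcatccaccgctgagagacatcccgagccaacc
Ifit1: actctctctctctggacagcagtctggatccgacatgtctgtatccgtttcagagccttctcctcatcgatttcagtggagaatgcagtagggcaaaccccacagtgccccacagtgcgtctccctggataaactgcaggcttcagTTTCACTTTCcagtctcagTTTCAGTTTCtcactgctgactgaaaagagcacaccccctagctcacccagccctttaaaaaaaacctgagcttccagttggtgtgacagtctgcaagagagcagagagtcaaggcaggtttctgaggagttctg
A match describes the letters of the window and not a site in use. The members that hold the core and were not called, Ifih1, Ddx58, Rsad2 and Eif2ak2, had log2 differences of 0.04 to 0.23.

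Genes of antigen presentation remained above control in lamin C hearts. Of 17 genes 15 were higher and none lower than control (median 0.67), 16 were higher in shRNA hearts (median 1.19), and 7 were lower in lamin C than in shRNA hearts. Without lamin C heart 1, 9 were called higher than control. Cd74, the invariant chain of MHC class II, had 269, 220 and 215 CPM in lamin C hearts, a mean of 257 CPM in shRNA hearts and 135, 75.8 and 160 CPM in control hearts (0.92 ± 0.19, edgeR adjusted p = 0.00323). H2-Ab1, a class II chain, had 85.2, 71.4 and 66.7 CPM in lamin C hearts, a mean of 92.1 CPM in shRNA hearts and 34.96, 17.2 and 52.9 CPM in control hearts (1.09 ± 0.25, edgeR adjusted p = 0.00548). Lamin C hearts were above control without overlap in both. Only shRNA means are given for these genes, so overlap with shRNA hearts cannot be read from them. B2m, the light chain of MHC class I, was higher by 0.56 ± 0.11, Tap1, the peptide transporter, by 0.67 ± 0.14 and H2-D1, a class I heavy chain, by 0.47 ± 0.09. Of 16 complement genes 13 were higher and none lower (median 0.74). C1qb, a chain of the C1q recognition protein, had 95.3, 82.5 and 92.6 CPM in lamin C hearts, 206, 190.1 and 188 CPM in shRNA hearts and 44.0, 47.9 and 51.6 CPM in control hearts (0.91 ± 0.07, edgeR adjusted p = 1.99e-07). C4b was higher by 1.85 ± 0.27 and C3, whose groups overlapped, by 0.96 ± 0.26.

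Many leukocyte markers were also higher, although C1qb is on both the complement and the macrophage list. Of 18 macrophage and monocyte markers 15 were higher and none lower (median 0.94), and their summed level was 811 to 962 CPM in lamin C hearts, 1769 to 1943 CPM in shRNA hearts and 487 to 577 CPM in control hearts. Ccr2, the receptor of recruited monocytes, had 16.8, 12.7 and 14.5 CPM in lamin C hearts and 3.92, 2.07 and 4.62 CPM in control hearts (2.05 ± 0.21, edgeR adjusted p = 4.3e-06). Trem2 (1.55 ± 0.15), Cd68 (1.11 ± 0.09) and Adgre1 (0.97 ± 0.12), all macrophage surface or lysosomal proteins, were also higher. The 3 markers that were not called were Timd4 (-0.46 ± 0.25), Lyve1 (-0.31 ± 0.15) and Cd163 (0.05 ± 0.22). Mrc1, C1qa, C1qb and C1qc were among the 15 called higher, and kinds of macrophage were not separated. Of 14 T and natural killer cell markers 5 were higher and none lower (median 1.58), at a summed level of 10.2 to 10.8 CPM in lamin C hearts, 16.6 to 18.6 CPM in shRNA hearts and 2.97 to 4.58 CPM in control hearts. Ccl5, a chemokine of T cells, had 1.87, 2.10 and 1.82 CPM in lamin C hearts and 0.131, 0.0702 and 0.358 CPM in control hearts (3.37 ± 0.41, edgeR adjusted p = 2.55e-05). The count was 2 without control 1, 3 without lamin C heart 1 and 9 by library totals. Only 1 of the 14 markers reached 1 CPM in the controls, so most of these levels are low. Of 9 B cell markers Igkc was called and of 5 neutrophil markers Csf3r, both higher, but Igkc was not called without control 1 (1.17) or lamin C heart 3 (1.204). The B cell share is near the 8.87% called higher over all genes. The part of these markers in the immune lists was not tested.

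Lists of stress pathways inside cells had unlike numbers of members called, and differences between the lists were not tested. Of 24 genes of the integrated stress response, in which Atf4 raises amino acid synthesis and transport, 12 were higher and 2 lower in lamin C hearts (median 0.37). Besides Gdf15, Psat1, an enzyme of serine synthesis, had 7.13, 6.85 and 6.20 CPM in lamin C hearts, 20.5, 18.8 and 21.7 CPM in shRNA hearts and 2.94, 3.89 and 4.40 CPM in control hearts (0.85 ± 0.14, edgeR adjusted p = 0.000451). Atf3, a transcription factor of the pathway, was higher by 1.19 ± 0.23, with 12.5, 7.95 and 13.6 CPM in lamin C hearts and 5.16, 4.21 and 5.51 CPM in control hearts. Atf4 itself (0.20 ± 0.09, edgeR adjusted p = 0.167) and Ddit3 (0.37 ± 0.16, adjusted p = 0.12) were not called, and Shmt2 and Aldh1l2, of mitochondrial folate metabolism, were the members that fell. Neither was called without control 1, lamin C heart 1 or lamin C heart 3, or by library totals. Their share of the list is near the 6.18% called lower over all genes. Of 20 genes of the unfolded protein response, which answers misfolding in the endoplasmic reticulum, none was called by edgeR in either direction (median -0.08), with 4 at an unadjusted p under 0.05 and 1 called by DESeq2. Among them Hspa5, its main chaperone, was at -0.32 ± 0.12 (edgeR adjusted p = 0.0671). In shRNA hearts 12 of the 20 were higher and 2 lower (median 0.28), against 33.3% higher and 29.6% lower over all genes. The integrated stress response list had a median of 0.99 in shRNA hearts.

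The C/EBP-ATF response element through which Atf4 binds was looked for in the same way. The core TGATGCAA, on both strands (TTGCATCA on the other), was in the windows of 5 of 21 genes of the integrated stress response with a window and in 1.03% of the 27025 genes. It was in 4 of 11 genes called higher and in 1 of 10 that were not. The windows of Atf3 (chr1:191183284-191183583, minus strand, core at -110) and Pycr1, which makes proline (chr11:120643699-120643998, minus strand, core at -103), are given with the core in capitals because both genes were higher than control.
Atf3: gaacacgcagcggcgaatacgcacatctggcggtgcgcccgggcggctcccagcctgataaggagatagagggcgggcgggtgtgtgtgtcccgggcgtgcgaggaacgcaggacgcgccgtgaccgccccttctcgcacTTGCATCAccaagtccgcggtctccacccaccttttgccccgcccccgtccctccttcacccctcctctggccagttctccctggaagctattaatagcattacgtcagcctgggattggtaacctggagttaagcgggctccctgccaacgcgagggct
Pycr1: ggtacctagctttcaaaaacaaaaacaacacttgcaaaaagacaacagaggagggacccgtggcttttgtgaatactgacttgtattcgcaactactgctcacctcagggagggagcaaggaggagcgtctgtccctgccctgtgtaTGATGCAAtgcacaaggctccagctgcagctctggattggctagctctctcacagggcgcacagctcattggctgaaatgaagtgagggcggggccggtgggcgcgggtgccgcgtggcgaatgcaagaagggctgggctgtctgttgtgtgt
Pycr1 was higher by 1.00 ± 0.21 (edgeR adjusted p = 0.00358). The Gdf15 window did not hold these letters.

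Of 21 p53 targets 10 were higher and none lower (median 0.27). Cdkn1a, the cell cycle inhibitor p21, had 34.2, 37.2 and 34.4 CPM in lamin C hearts, a mean of 150.3 CPM in shRNA hearts and 9.02, 11.5 and 24.8 CPM in control hearts (1.23 ± 0.22, edgeR adjusted p = 0.00101). Phlda3 had 19.8, 19.4 and 20.05 CPM in lamin C hearts, 78.6, 67.6 and 68.6 CPM in shRNA hearts and 9.74, 11.6 and 11.1 CPM in control hearts (0.87 ± 0.09, edgeR adjusted p = 5.74e-06). The 3 lamin C hearts were close to each other in both genes and above every control heart. Mdm2, the main feedback target of p53, was at 0.14 and was not called. Of 24 targets of MAPK signalling and immediate early genes 7 were higher and none lower (median 0.53), including Myc (1.33 ± 0.22), Junb (1.11 ± 0.17), Etv5 (0.68 ± 0.10) and Egr2 (1.96 ± 0.34). By library totals, and also without lamin C heart 2, 11 were called higher. Fos, Egr1 and the feedback phosphatases Dusp4 and Dusp6 were not called. Of 18 heat shock genes 3 were higher, Hspa1a, Hspa1b and Dnajb1, and 2 lower, Hspd1 and Hspa4l. Over all genes 8.87% were higher and 6.18% lower. Hspd1 was not called without control 3 (-0.22) or lamin C heart 1 (-0.23), nor was Hspa4l, and by library totals 8 were higher and neither of the 2 was lower. Hspa1a and Hspa1b are near-identical copies, so their separate counts are uncertain. Of 20 cell cycle genes 6 were higher and none lower (median 0.63), against 19 higher in shRNA hearts. These compare with 8.87% and 33.3% of all genes, and by library totals 11 were higher in lamin C hearts. Aurkb, a mitotic kinase, was called and had 2.30, 1.83 and 2.09 CPM in lamin C hearts and 0.719, 0.526 and 0.859 CPM in control hearts (1.55 ± 0.29, edgeR adjusted p = 0.0014).

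In the lamina list, 22 genes of the nuclear envelope, Lmna and Tmem43 were higher and Lbr, the lamin B receptor, was lower. These shares are near the 8.87% and 6.18% over all genes, and by library totals 4 were higher. Apart from Lmna the differences were small: Tmem43 was at 0.26 ± 0.07 and Lbr at -0.20 ± 0.06, and the other 19 members lay between -0.25 and 0.27 and were not called. Tmem43 was not called without lamin C heart 1 (0.19, edgeR adjusted p = 0.119), control 1 (0.23) or control 2 (0.24). Lbr was not called by library totals (-0.09, adjusted p = 0.356), nor without control 2 or 3 or lamin C heart 1 or 3 (-0.19 to -0.17). Of 16 retinoid genes 5 were higher, among them Aldh1a2, which makes retinoic acid (1.24 ± 0.24), while Lrat was lower. The share lower is near the 6.18% over all genes. The number higher was 2 without control 1 and 3 without control 3 or lamin C heart 1. Of 18 genes of NAD metabolism 4 were higher, led by Nmrk2, and 3 lower, including the mitochondrial NAD kinase Nadk2 (-0.36 ± 0.08), and without control 1 or lamin C heart 1 the number higher was 2. Of 19 genes of natriuretic, adrenergic and muscarinic signalling 5 were lower and Gnai2 was higher, but Gnai2 was not called without control 3 or lamin C heart 3. The share higher is below the 8.87% over all genes. The number lower was 3 without control 1, control 2 or lamin C heart 3, and by library totals 3 were higher and 3 lower. Corin, the protease that activates natriuretic peptides, had 185, 178 and 174 CPM in lamin C hearts, 92.5, 95.8 and 111 CPM in shRNA hearts and 269.6, 239.9 and 244 CPM in control hearts (-0.49 ± 0.10, edgeR adjusted p = 0.00322). Its lamin C values lay between the other groups without overlap.

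Of 12 endothelial markers Kdr, a receptor of the growth factor VEGF, and Tek, the angiopoietin receptor, were lower (median -0.17). In these genes control heart 3 was the highest, and Kdr had 136, 132 and 160.1 CPM in lamin C hearts and 188, 185 and 285 CPM in control hearts. Without control 3 Kdr was at -0.39 (edgeR adjusted p = 0.00261) and Tek at -0.14 (adjusted p = 0.0868). Tek was also not called without lamin C heart 1 (-0.26) or 2 (-0.24). In clock genes the same heart was apart. Arntl, the clock activator Bmal1, had 1.90, 1.28 and 2.26 CPM in lamin C hearts and 0.751, 1.37 and 26.2 CPM in control hearts, and Dbp, an output gene, had 166, 170 and 167 CPM in lamin C hearts and 210.1, 205 and 34.6 CPM in control hearts. Arntl was the 1 of 19 clock genes that was called (-2.37 ± 0.78, edgeR adjusted p = 0.0463), and without control 3 it turned to 0.77 (adjusted p = 0.0435). It was not called without any 1 lamin C heart (-2.57 to -2.16). The share of clock genes called lower is below the 6.18% over all genes. Without control 3, 1 of the 19 was called higher and 2 lower. Of 6 adipocyte, 4 mesothelial and 5 erythroid markers none was called by edgeR, with 1, 2 and 0 at an unadjusted p under 0.05 and 0, 1 and 0 called by DESeq2. Of 11 smooth muscle and pericyte markers Acta2 was higher and Rgs5 lower, although Rgs5 was not called without control 3 (-0.16) or lamin C heart 1 (-0.19) or 3 (-0.20). Both shares are near those over all genes, 8.87% higher and 6.18% lower. Of 7 Schwann cell markers 2 were higher, of 8 skeletal muscle markers 2 were higher, and of 7 atrial markers 3 were higher and 1 lower. These compare with 8.87% higher and 6.18% lower over all genes, and each list is short. Of 19 genes of autophagy and atrophy Ctsb, a lysosomal protease, was higher and Trim63, a muscle ubiquitin ligase, was lower. These shares are below the 8.87% and 6.18% over all genes, and by library totals 4 were higher. Among the markers, 4 endothelial genes were lower without control 1, 1 Schwann cell gene was higher without lamin C heart 1, and 1 skeletal muscle gene was higher without control 1, control 2, lamin C heart 1 or lamin C heart 3. The atrial fall was not called without lamin C heart 1 or 2.

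Genes known from earlier results of these data for steep changes under the shRNA were taken as a further list. Of 22 such genes 13 were higher and 3 lower in lamin C hearts, leaving 6 not called, against 8.87% higher and 6.18% lower over all genes. The list was chosen from these same data, possibly with the same controls, so its counts describe the list and test nothing. The 3 still lower were Clcn1, Kcnv2 and Mylk4, a myosin light chain kinase, which had 236, 227 and 211 CPM in lamin C hearts, 12.5, 21.5 and 11.4 CPM in shRNA hearts and 436, 468 and 241 CPM in control hearts. Mylk4 was at -0.76 ± 0.22 and was not called without control 1 or control 2 (edgeR adjusted p = 0.0879 and 0.101), nor without lamin C heart 1 (-0.80) or 3 (-0.72). Scn4b, a beta subunit of sodium channels, had 42.8, 49.6 and 48.6 CPM in lamin C hearts, 1.31, 2.29 and 0.586 CPM in shRNA hearts and 28.2, 37.4 and 24.5 CPM in control hearts. Its lamin C values were all above control, but the difference was not called (0.65 ± 0.26, edgeR adjusted p = 0.101). Ces1d, a carboxylesterase, had 107, 129 and 98.1 CPM in lamin C hearts, 5.37, 7.89 and 1.43 CPM in shRNA hearts and 166, 148 and 116 CPM in control hearts, and lamin C overlapped control. Cnn1, the smooth muscle calponin, had 5.23, 2.78 and 4.02 CPM in lamin C hearts, 51.7, 44.2 and 46.7 CPM in shRNA hearts and 2.81, 1.86 and 1.86 CPM in control hearts, with overlap between lamin C and control (0.86 ± 0.37, edgeR adjusted p = 0.129). Smco1 and Cyp26b1 were not called either. Chil1, a chitinase-like protein, had 13, 7 and 12 counts in lamin C hearts and 0, 0 and 1 in control hearts. The ratio of the summed counts was 27.8, and its 95% interval from counting error ran from 4.64 to 1132.

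Lamin A hearts of batch LA, set against their own controls, served as the other group given a lamin. They differed from control in 8266 genes (46.2%), 4314 (24.1%) higher and 3952 (22.1%) lower. The comparisons share no library. Of the genes higher in lamin C hearts 1379 were also higher in lamin A hearts, which is 87.0% of the lamin C set and 32.0% of the lamin A set. Of the genes lower in lamin C hearts 1001 were also lower in lamin A hearts, 90.6% of the lamin C set and 25.3% of the lamin A set. The difference between the residuals, lamin C minus lamin A, was called in 2616 genes (14.6%), 1303 (7.29%) higher and 1313 (7.35%) lower. Among the 1585 genes higher in lamin C hearts it was called lower in 534 and higher in 36, and among the 1105 lower genes it was called higher in 431 and lower in 16. Batch and lamin cannot be told apart in this difference.

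By lists, the matrix genes had a median residual of 1.16 in lamin C and 2.49 in lamin A hearts, and the difference was called lower in 32 of 38. Fatty acid oxidation genes had medians of -0.29 and -0.80 (difference called higher in 21 of 30), and respiratory chain genes -0.22 and -0.53 (21 of 43). Antigen presentation genes had 0.67 and 0.65, with a median difference of 0.09 over 17 genes. Interferon genes had 0.47 and 0.73, with the difference called lower in 4 and higher in 1 of 36. Efnb3, a membrane-bound ligand of Eph receptors, had 41.996, 45.5 and 47.2 CPM in lamin C hearts and 76.3, 73.8 and 66.001 CPM in their controls, while lamin A hearts had 10.1, 15.4 and 12.5 CPM and their controls 66.4, 69.9 and 73.7 CPM. Both residuals were below 0, and they differed by 1.78 ± 0.18 (edgeR adjusted p = 1.46e-05). Tnc, the matrix protein tenascin C, had 17.7, 7.97 and 14.8 CPM in lamin C hearts and 1.83, 1.54 and 2.36 CPM in their controls, while lamin A hearts had 148, 136 and 137 CPM and their controls 2.86, 2.74 and 1.88 CPM. Here the residuals were both above 0 and differed by -3.00 ± 0.74 (edgeR adjusted p = 0.0101). Lmna differed from control by 3.34 in lamin C and by 2.18 in lamin A hearts, a difference of 1.16 ± 0.12 (edgeR adjusted p = 1.46e-05).

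**Figure D4:**
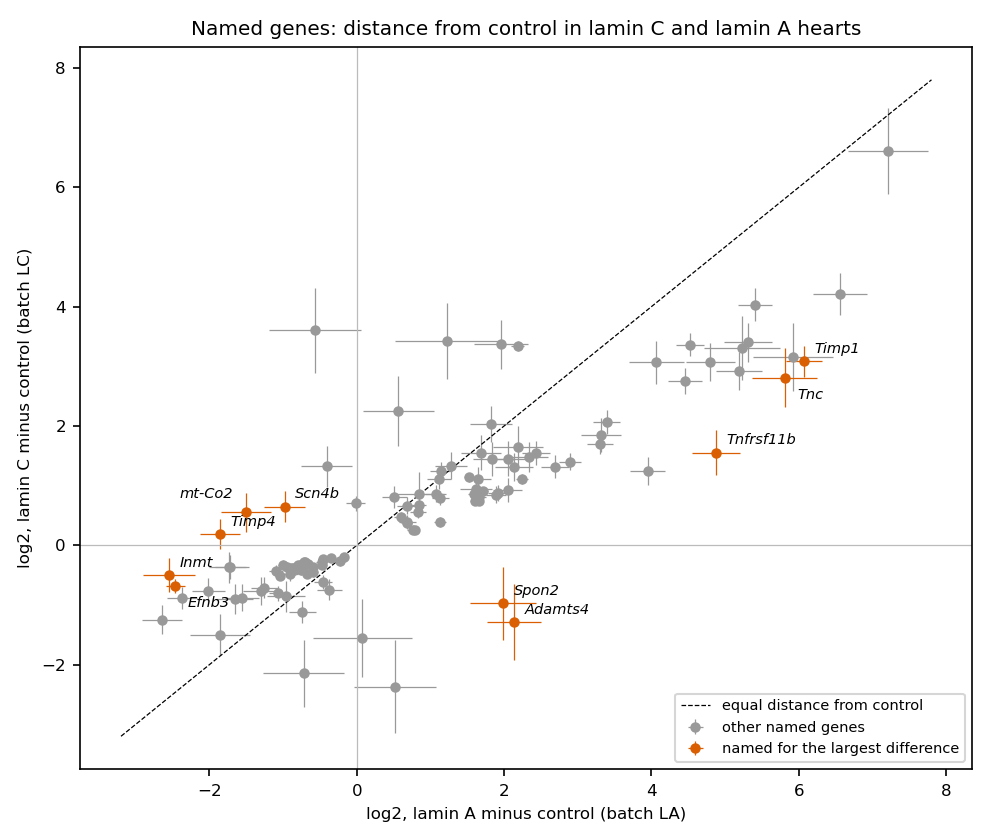
Log2 difference from control with SE in lamin A hearts (x) and lamin C hearts (y) for 114 of 117 named genes, those with both SEs under 0.8. Most points lie nearer to 0 on the y axis than on the x axis, and the genes in colour are those named for the largest difference between the residuals, such as Tnc and Efnb3.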

How the data were processed

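RNA came from the heart apex and was sequenced from directional poly(A) libraries, per the labels' protocols. The authors deposited raw read counts per gene, with no scaling, and FPKM values, which are scaled by gene length and by a library size that the authors adjusted. The submitters' processing notes name the build mm10 and, without roles, StringTie 1.3.3b, DESeq2 1.20.0, featureCounts 1.5.0-p3 and HISAT2 2.0.5. No source used here states how strand was handled in counting, so overlapping and antisense genes cannot be separated with certainty. Here the counts were tested with edgeR 4.0.16 (R 4.3.3) by its quasi-likelihood test after TMM scaling and its filter on low counts, with all 18 libraries in 1 fit of 6 groups and 12 residual degrees of freedom. A gene counts as called where its p, adjusted by Benjamini-Hochberg over all genes tested, is under 0.05. CPM are counts relative to the TMM-scaled library total, log2 differences are edgeR's fitted values with the SE taken from the F statistic, and 3 counts correspond to 0.0819 to 0.107 CPM in the lamin C and control libraries. Counting intervals cover counting error only. The procedure was tested on simulated data with planted changes of 1.5-, 2- and 4-fold. It recovered 74.6%, 91.0% and 100% of them, with 5 false calls among 17360 genes tested. Changes under 1.5-fold were not simulated, so the recovery of the small falls described here is not known.

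The rule for naming genes took Lmna and the 12 steepest rises and falls (protein-coding, called, a mean of 5 CPM or more in the group where they were higher, no overlap). It added the 3 called members with the lowest p on each list, all members of the list of steep changes, and the 5 largest differences from lamin A in each direction. Further list members were picked after their values were seen, as examples of a list, and some genes that the rule takes are not reported here. The members and lists were chosen with earlier results of these data known. Promoter sequences were read from RefSeq (GRCm38.p6). Alternatives were DESeq2 1.42.0, limma 3.58.1 on log2(FPKM + 1) and log2(FPKM + 0.1), other scaling, no filter on low counts, a replicate block, fewer samples in the fit, no mitochondrially encoded genes, and leaving out each library.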

Additional observations from a re-analysis of the deposited data

Results flagged for a closer look

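The difference from control in lamin C hearts was compared with that in lamin A hearts by edgeR's quasi-likelihood test of the difference itself, and the 5 largest called differences in each direction were taken. Lamin and batch cannot be told apart in them. In the positive direction, lamin C minus lamin A was 2.05 ± 0.47 for mt-Co2 (SE, n = 3 per group, edgeR adjusted p = 0.00631), 2.05 ± 0.46 for Inmt (adjusted p = 0.00513), 2.04 ± 0.37 for Timp4 (adjusted p = 0.00116), 1.78 ± 0.18 for Efnb3 (adjusted p = 1.46e-05) and 1.63 ± 0.38 for Scn4b (adjusted p = 0.00695). Timp4, an inhibitor of matrix proteases, had 45.4, 51.5 and 36.3 CPM in lamin C hearts against 39.2, 48.0 and 30.1 CPM in their controls, and 14.1, 9.94 and 6.46 CPM in lamin A hearts against 29.7, 47.0 and 33.0 CPM in their controls. The mt-Co2 counts were uneven, with 1739, 1586 and 3292 CPM in lamin C hearts against 1404, 1768 and 1348 CPM in their controls, and 1024, 1257 and 1412 CPM in lamin A hearts against 5259, 3109 and 2081 CPM in their controls.

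In the negative direction the difference was -2.96 ± 0.76 for Spon2 (SE, n = 3 per group, edgeR adjusted p = 0.0128), -2.99 ± 0.41 for Timp1 (adjusted p = 0.000148), -3.00 ± 0.74 for Tnc (adjusted p = 0.0101), -3.32 ± 0.57 for Tnfrsf11b (adjusted p = 0.000845) and -3.42 ± 0.73 for Adamts4 (adjusted p = 0.00387). Timp1 had 98.9, 110.9 and 126 CPM in lamin A hearts against 2.36, 1.27 and 1.298 CPM in their controls. Control heart 3 of batch LC was apart in Adamts4, where lamin C hearts had 0.433, 0.382 and 0.626 CPM against 0.196, 0.351 and 3.04 CPM in controls. The same heart was apart in Spon2, where lamin C hearts had 1.90, 2.21 and 2.50 CPM against 1.699, 0.982 and 10.5 CPM in controls. Without control 3 the difference of lamin C hearts from control was 0.81 for Adamts4, against -1.28 with all hearts, and 0.71 for Spon2, against -0.97. None of these 4 values was called, and the difference from lamin A was not refitted for these genes without control 3.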

How the results depend on the processing

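Library totals in place of TMM factors moved every count of calls. They gave 2879 genes higher and 293 lower between lamin C and control hearts, 2337 and 9213 between lamin C and shRNA hearts, 10429 and 2415 between shRNA and control hearts, 7676 and 1760 between lamin A and control hearts, and 681 and 2372 for the difference between the residuals. Leaving out 1 library at a time gave 1066 to 1620 higher and 441 to 1060 lower for lamin C against control, and 858 to 1238 higher and 922 to 1283 lower for the difference. Without control 1 lamin C against control had 709 lower, without lamin C 1 it had 441 and without lamin C 3 it had 560, and the difference had 858 higher without lamin C 2. Between 55.0% and 84.2% of the 2690 calls were kept. DESeq2 called 1646 genes higher and 1298 lower and kept 98.1%. With only the lamin C and control libraries of batch LC in the fit, 1087 genes were called higher and 748 lower. With genes chosen in batch LA at 4-fold the medians were 1.13 and -0.40. Arntl, at -2.37, ranged from -2.93 to 0.77 when 1 library was left out, and was reversed without control 3 alone (0.77). The replicate block gave 1481 genes higher and 983 lower. Same-numbered lamin C and control hearts had correlations of -0.0459, -0.000834 and 0.0617 in their deviations, and those of unlike number ranged from -0.0659 to 0.075. The labels state no pairing, and these values cannot show whether hearts shared a litter or a day. The lamin C and control libraries number 3 each, and genes under about 1 CPM rest on few counts.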

Other observations

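In lamin C hearts a small set of genes differed from both other groups of the batch. By edgeR's quasi-likelihood test, 39 of the 17876 genes tested, Lmna among them, were higher than in both shRNA and control hearts. In the other direction 30 were lower than in both. Of these, 34 and 30 overlapped neither group. These tests share the lamin C libraries, and 13 of the 34 and 6 of the 30 without overlap reached 2-fold against both. All 6 of these falls were under 1 CPM in every heart of the batch and rest on few counts. Among the 13 rises the same holds for Mybphl, Tfap2b, Arhgap36, Rtl1 and Vwc2. The genes named here were chosen after their values were seen. Tnnt1, the slow skeletal troponin T, had 29.6, 29.5 and 34.8 CPM in lamin C hearts, 9.02, 8.91 and 7.41 CPM in shRNA hearts and 14.96, 15.1 and 13.1 CPM in control hearts. It was 1.12 ± 0.09 above control (edgeR adjusted p = 1.99e-07), and lamin C hearts overlapped neither group. Lamin A hearts had 10.5, 10.3 and 9.44 CPM against 13.8, 13.8 and 12.9 CPM in their controls.

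Mybphl, a relative of cardiac myosin-binding protein known from atria and the conduction system, had 73 counts over the lamin C hearts, 8 over the shRNA hearts and 5 over the control hearts. Egln3, an oxygen-sensing prolyl hydroxylase, had 46.5, 51.7 and 48.2 CPM in lamin C hearts, 66.3, 61.1 and 82.1 CPM in shRNA hearts and 58.4, 65.3 and 89.3 CPM in control hearts (-0.54 ± 0.12 against control, edgeR adjusted p = 0.00614).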
